A study of Caenorhabditis elegans with 2 samples.

Results

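Genes that sit close together can share the stretch of DNA upstream of their starts. The regions described here are the strong PAG-3 ChIP-seq regions whose summit, the point of highest enrichment, fell in the promoter windows of 2 or more protein-coding genes at once. There were 158 of them among 21336 candidate regions of the pooled list. They were chosen by rank and position: a region had to be among the 2000 of largest signal value, with its summit between 1000 bp upstream and 200 bp downstream of annotated transcript starts of at least 2 genes in the WBcel235 (ce11) assembly. Of 174 regions that met this, 8 lay within 100 bp of a tRNA, snoRNA or snRNA gene and 8 lay on the right end of chromosome V (from position 16739345), and both sets were left out. The 158 regions lay in the windows of 306 genes. Joined wherever they shared a gene, they formed 148 loci. Of the 158, 18 formed 9 overlapping pairs, and in each of the 9 the same replicate regions matched both, so their replicate values are counted for both.

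The study mapped binding of PAG-3 by chromatin immunoprecipitation and sequencing in whole late embryos of Caenorhabditis elegans. The single group held 2 biological replicates of strain OP154, which carries unc-119(ed3) on chromosome III and the integrated transgene wgIs154, a PAG-3 protein with a C-terminal GFP-FLAG tag, and antibody against GFP was used. Hermaphrodites had been synchronised by egg bleaching and were collected 4 hours later. Both replicates carry the tagged protein, so what follows describes regions within 1 condition, and the lists give no read depth. Signal values are the authors' own, on a scale the sources used here do not define, and no untagged sample is analysed here. Whole embryos pool many cell types, and a region bound in few cells cannot be told apart from one bound weakly in many.

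PAG-3 is a zinc-finger repressor of the GFI family, known in the worm for its role in the fate of certain neurons. Proteins of this family recognise a site with the core AATCAC. When neighbouring genes are transcribed away from each other (head to head), the sequence between their starts can serve as promoter for both. Neighbours on the same strand may instead form an operon, in which 1 promoter upstream of the first gene drives all of them and the downstream transcripts receive their 5′ ends by trans-splicing. Many annotated 5′ ends in this organism are such splice sites or lie near the start codon, so the distances below are to annotated starts.

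The shortest shared promoters show in full what lies under a region. The 4 set out here are among the strongest head-to-head regions whose summit lay between starts at most 300 bp apart with no annotated exon between them. Each is written 5′ to 3′ on the plus strand of WBcel235 from RefSeq, and begins just after the start of the minus-strand gene and ends just before that of the plus-strand gene. Capitals mark 5 words on either strand: the family's core AATCAC, the GC box GGGCGG, the alternating word GCGCGC, and the recurrent words TGGCCTAG and also CTCCTCTCG found in several of these windows.
ears-2/uncp-18, chrIV:390469-390559, summit at base 35: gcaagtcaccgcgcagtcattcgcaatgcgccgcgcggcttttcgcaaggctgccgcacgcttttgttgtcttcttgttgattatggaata
cux-7/C07H6.2, chrIII:7520846-7521008, summit at base 4: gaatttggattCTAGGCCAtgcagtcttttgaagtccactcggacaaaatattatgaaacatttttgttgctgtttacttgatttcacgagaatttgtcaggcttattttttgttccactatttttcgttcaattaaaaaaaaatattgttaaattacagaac
aakb-2/Y47D3A.14, chrIII:11236869-11237142, summit at base 268: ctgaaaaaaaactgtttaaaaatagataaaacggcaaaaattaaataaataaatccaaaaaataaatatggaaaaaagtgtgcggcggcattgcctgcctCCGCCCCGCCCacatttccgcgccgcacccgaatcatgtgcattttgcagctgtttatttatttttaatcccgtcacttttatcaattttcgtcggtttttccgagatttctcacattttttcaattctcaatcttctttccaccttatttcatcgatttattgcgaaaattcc
lron-10/hpr-9, chrIII:10621370-10621550, summit at base 81: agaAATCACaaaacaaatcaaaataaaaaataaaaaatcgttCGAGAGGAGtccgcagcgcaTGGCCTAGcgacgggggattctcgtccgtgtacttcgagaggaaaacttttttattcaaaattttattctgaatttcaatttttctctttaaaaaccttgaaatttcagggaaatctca
The 91 bp between ears-2, a mitochondrial glutamyl-tRNA synthetase, and uncp-18 held 53.8% G and C and none of the 5 words. The other 3 stretches held 30.1%, 36.1% and 34.8% G and C. Under aakb-2 and Y47D3A.14 the word GGGCGG occurred on the minus strand in overlapping copies. Between lron-10 and hpr-9 both recurrent words and the core AATCAC occurred together.

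The strongest of the 158 regions, shared by atx-2 and ecps-1 and of rank 11 in the pooled list, had its summit in sequence of 59.4% G and C. The 101 bp centred on it hold the word GCGCGC and, to the right of the summit, the GC box, in capitals.
atx-2/ecps-1, chrIII:10461275-10461375: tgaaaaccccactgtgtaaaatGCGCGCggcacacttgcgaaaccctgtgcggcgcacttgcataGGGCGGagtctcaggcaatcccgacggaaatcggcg

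The GFI core occurred at these summits about as often as at promoters in general. AATCAC, searched on both strands, occurred in 10 of 158 summit windows of 101 bp (6.33%, 95% Wilson interval 3.47% to 11.3%) and in 14 of 316 windows of the same length centred 500 bp to each side (4.43%). The share was 2.99% at 502 strong regions in the promoter window of 1 gene and 4.03% at 818 weaker regions in windows of several genes. Over all 19973 protein-coding genes it was 6.01% in a window of the same length centred 200 bp upstream of the start. The related word AAATCA, which shares its last 5 bases with the first 5 of the core, occurred in 13.9% of the summit windows, 14.2% of the flanks and 17.6% of gene promoters. Intervals of shares treat regions as independent and cover counting error only. To show the bases around the core, 2 of the copies in stretches free of exons are given with 20 bases on each side, on the strand that reads it.
mex-1/W03C9.5, chrII:11967745-11967790, minus strand: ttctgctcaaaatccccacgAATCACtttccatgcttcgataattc
B0464.6/B0464.9, chrIII:9465533-9465578, plus strand: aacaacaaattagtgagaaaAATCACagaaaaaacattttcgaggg
The 8 other regions with the core include those of dnj-29/ndua-2 and of rpl-24.1/rps-10, a pair of ribosomal protein genes. They ran from near the top of the set (pooled signal value 195, at Y92H12BR.2/Y92H12BR.3) to the rank limit (52.8, at polh-1/rps-22).

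Longer words recurred instead, and those of 10 bases named below had 332 or more copies in the genome. They were found by counting all words of 10 bases in these summit windows, so their shares here describe that choice. TGGCCTAGAA occurred in 10 of the 158 windows, each at a locus of its own. It had 3230 copies in the 6 chromosomes, and its share was 0.996% at the strong single-gene regions, 0.734% at the weaker shared regions and 0.24% at all gene promoters. The shorter TGGCCTAG occurred in 15 (9.49%, 5.84% to 15.1%), against 0.316% of the flanks, 2.39% of the strong single-gene regions and 0.471% of all gene promoters. In 7 of the 15 a copy was soft-masked, that is, marked as repeat in the RefSeq sequence. For scale, soft-masked bases made up on average 31.8% of all 158 summit windows. The average was 16.4% at the strong single-gene regions and 31% at the weaker shared ones. Strong examples in stretches free of exons are aligned on the word, on the strand that reads it, with 20 bases on each side.
F25E5.1/srh-89, chrV:7465707-7465756, plus strand: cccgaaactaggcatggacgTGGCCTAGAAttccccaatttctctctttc
cav-2/C56A3.6, chrV:13556834-13556883, minus strand: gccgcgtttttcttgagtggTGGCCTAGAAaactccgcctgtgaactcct
sas-4/F10E9.11, chrIII:8319304-8319353, minus strand: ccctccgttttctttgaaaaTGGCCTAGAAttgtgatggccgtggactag
pfd-5/exos-9, chrIII:7198997-7199046, plus strand: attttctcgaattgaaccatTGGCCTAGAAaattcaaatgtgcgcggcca
bmy-1/F09E5.11, chrII:5358401-5358450, minus strand: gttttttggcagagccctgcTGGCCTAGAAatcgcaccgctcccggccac
The genes beside them have unlike roles: sas-4 builds centrioles, pfd-5 is a subunit of the chaperone prefoldin, exos-9 belongs to the RNA exosome and srh-89 encodes a chemoreceptor.

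A second recurrent word, ACTCCTCTCG, occurred in 7 of the 158 windows (4.43%) and had 332 copies in the genome. Its share was 1.2% at the strong single-gene regions and 0.115% at all gene promoters. In 3 of the 7 windows a copy was soft-masked. Whether this word or TGGCCTAG comes from a repeat was not tested. Within 150 bp of the summit, a longer stretch than the window of 101 bp counted elsewhere, the shorter CTCCTCTCG followed TGGCCTAG on the same strand in 4 regions, with 34 bases between them at cux-7, 17 at cav-2, 37 at ced-5 and 40 at ska-1. Only this order and strand, with a limit on the bases between, was searched, so the short spacing follows in part from the search. Other arrangements, such as the opposite strands at lron-10/hpr-9, and other sets of regions were not counted. Either of the short words occurred in 19 of the 158 windows (12%, 7.84% to 18%), against 3.59% of strong single-gene windows and 1.96% of weaker shared windows. Both words were taken from these 158 windows, so this difference describes that choice too, which the interval does not cover. Copies in stretches free of exons are aligned on the word.
cav-2/C56A3.6, chrV:13556810-13556859, minus strand: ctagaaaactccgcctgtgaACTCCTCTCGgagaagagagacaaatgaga
lron-10/hpr-9, chrIII:10621392-10621441, minus strand: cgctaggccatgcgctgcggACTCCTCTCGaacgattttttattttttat
ced-5/F01D4.5, chrIV:10483908-10483957, plus strand: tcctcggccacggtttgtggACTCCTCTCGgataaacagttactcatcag
fbxb-85/hex-3, chrIII:10848973-10849022, minus strand: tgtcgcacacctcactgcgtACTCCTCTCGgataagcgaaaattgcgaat
Here ced-5 acts in the engulfment of dying cells, and lron-10 encodes a protein with leucine-rich repeats.

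Another word, ACGAAAAGGG, lay in near-identical stretches at the 2 regions compared, and the other windows with the word were not compared. It occurred in 6 windows, was soft-masked in all 6 and had 520 copies in the genome. The stretches at nrde-2, which acts in nuclear RNA interference, and at elpc-4, a subunit of the Elongator complex, are set out to show their likeness: 66 of 70 bases were identical.
nrde-2/atad-3, chrII:10248474-10248543, minus strand: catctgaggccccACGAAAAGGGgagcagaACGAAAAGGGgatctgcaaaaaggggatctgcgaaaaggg
elpc-4/C26B2.7, chrIV:8016165-8016234, minus strand: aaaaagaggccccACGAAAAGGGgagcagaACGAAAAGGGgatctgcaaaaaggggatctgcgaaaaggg
A read from an exact copy can be placed at more than 1 position. In 13 of the 158 windows some words of 36 bases occurred more than once in the genome. In the windows of the stretches shown, 95.5% of such words were unique at nrde-2 and 84.8% at elpc-4. Over the 6 windows the share ran from 24.2% at enu-3.1/smrd-1 to 100% at npp-6/spd-5. At the stronger of 2 regions upstream of elpc-4, whose window does not hold ACGAAAAGGG, none was unique. How reads with several placements were treated is not stated, and the part of such copies in the signal was not tested.

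CTGCGTCTC occurred in 8 of the 158 windows (5.06%, 2.59% to 9.67%) and in none of 316 flanking windows (Wilson upper limit 1.2%), where a count of 0, read as under 3 counts, allows a share of up to 0.949%. A copy was soft-masked in 5 of the 8. The share was 4.58% at the strong single-gene regions (3.07% to 6.78%), 2.69% at the weaker shared ones (1.78% to 4.04%) and 0.986% at all gene promoters. With the set taken from the 1000 strongest regions it was 2.25% (2 of 89 regions), below that of the weaker shared ones. The 4 copies given, on the strand that reads the word, lie in stretches free of exons.
jmjd-1.2/F29B9.11, chrIV:4660745-4660793, plus strand: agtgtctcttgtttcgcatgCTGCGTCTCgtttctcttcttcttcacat
C27C12.4/C27C12.1, chrX:14853974-14854022, minus strand: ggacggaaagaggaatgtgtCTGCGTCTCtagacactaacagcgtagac
set-16/drr-2, chrIII:13643759-13643807, minus strand: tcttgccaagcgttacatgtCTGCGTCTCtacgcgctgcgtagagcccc
F19F10.11/C50E3.5, chrV:7587832-7587880, plus strand: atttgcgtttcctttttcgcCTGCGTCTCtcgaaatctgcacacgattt
Here jmjd-1.2 encodes a histone demethylase and set-16 a histone H3 lysine 4 methyltransferase.

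The summits were islands of G and C in sequence rich in A and T, though less so than the summits at single genes. The median GC content was 45.5% at the 158 summits, 50.5% at the 502 strong single-gene summits and 38.6% at the 818 weaker shared ones. At least 50% was reached in 31.6% of the 158 windows (24.9% to 39.3%), in 53% of the single-gene windows (48.6% to 57.3%), in 16% of the weaker shared windows and in 4.27% of all gene promoters. The summit exceeded its flanks in 119 of 158 regions, against 449 of 502 single-gene regions and 456 of 818 weaker shared ones. With base content went short words. The share of windows with GCGCGC was 8.23% at summits against 0.317% in flanks, that with the GC box 9.49% against 1.9% and that with GAGAGA 14.6% against 5.06%. GAGAGA was more frequent at single-gene regions (23.9%), while TTTCAG, the sequence of the worm 3′ splice site, was in 9.49% of the windows at summits against 28.8% in flanks. The flanks are centred 500 bp from the summit, and the median distance between head-to-head starts was 528 bp. Flanks therefore often lay past a start, within a gene. The part of base content and of this placing in these shares was not tested.

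**Figure D1:**
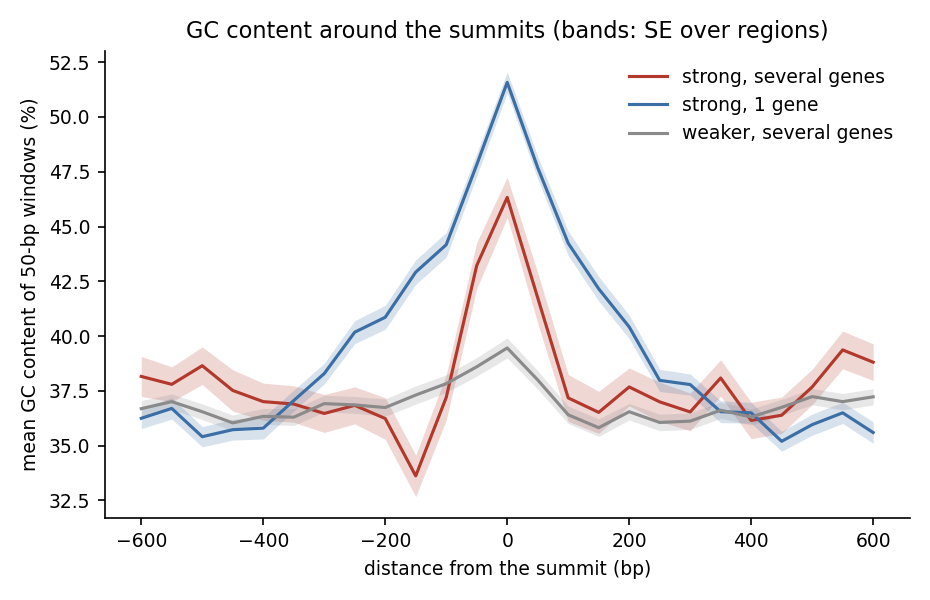
Mean GC content (%) of windows of 50 bp against distance from the summit (bp) for the 158 strong regions at several genes, 502 strong regions at 1 gene and 818 weaker regions at several genes, with bands of the standard error over regions. At the summit the regions at several genes reach 46.3%, between the other sets, and they fall to 37.2% within 100 bp on either side.

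Most of these regions lay between genes transcribed away from each other. Of the 158, 145 had head-to-head genes (91.8%, 86.4% to 95.1%), 12 had genes on the same strand and 1 lay where the starts of clik-1 and T25F10.1 face each other. This mostly mirrors the genome, since 86% of positions in the windows of several genes are head to head, as were 86.6% of the weaker shared regions. The place of the summit differed more. It lay between the starts in 131 of 145 head-to-head regions (90.3%, 84.5% to 94.2%), against 70.1% of the weaker ones (66.6% to 73.3%) and 69% of such genome positions. Of the summits between the starts, 43.5% lay in the central one of 3 equal parts of the gap (57 of 131), against 42.7% of the weaker ones (212 of 496). In 134 of 158 regions the summit was between genes, in 9 in an intron, in 8 in an untranslated exon and in 7 in a coding exon. Position is only as fine as the lists allow: 153 of the 158 regions were exactly 450 bp wide with the summit at the centre.

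**Figure D2:**
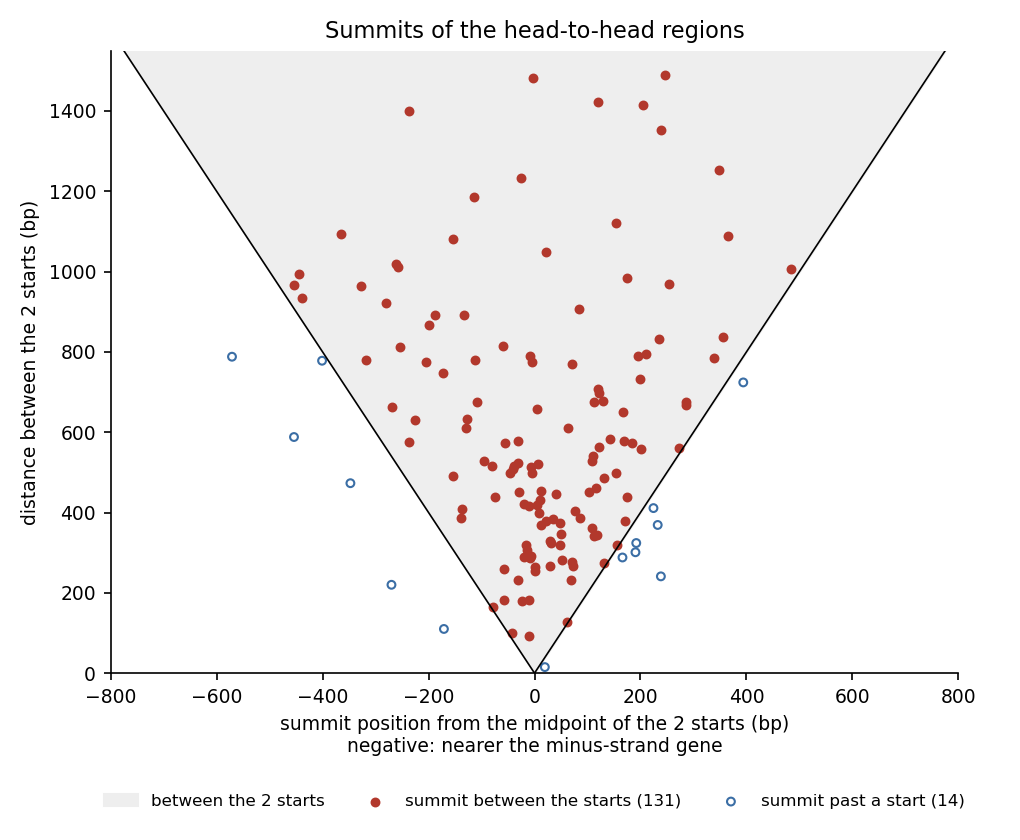
Distance of the summit from the midpoint of the starts (bp, negative towards the minus-strand gene) against the distance between the starts (bp) for 145 head-to-head regions, with the stretch between the starts in grey. The 131 filled points lie between the starts and the 14 open ones past a start. Where the starts are close, any point between them must lie near the midpoint.

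Pairs with starts 301 to 600 bp apart carried such a region most often, though the intervals of both neighbouring classes overlap theirs. The annotation holds 2444 neighbouring head-to-head pairs with outermost starts up to 2000 bp apart, and 131 of them (5.36%) had a region of the set in the windows of both genes. The share was 5.29% (3.63% to 7.63%) up to 300 bp, 8.98% (6.93% to 11.6%) from 301 to 600 bp, 6.49% (4.76% to 8.77%) from 601 to 1000 bp and 1.8% (1.08% to 3%) from 1001 to 2000 bp. The windows of distant genes overlap less, so part of this follows from the rule. Per 100 kb of sequence in both windows, the number of pairs with a region was 8.89, 10.6, 5.91 and 3.26 over the same 4 classes, so the class from 301 to 600 bp was highest and the class above 1000 bp lowest on both scales. The numbers per 100 kb carry no interval, and on that scale the class up to 300 bp came close to the highest. The median distance was 508 bp for pairs with a region and 674 bp for all pairs.

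**Figure D3:**
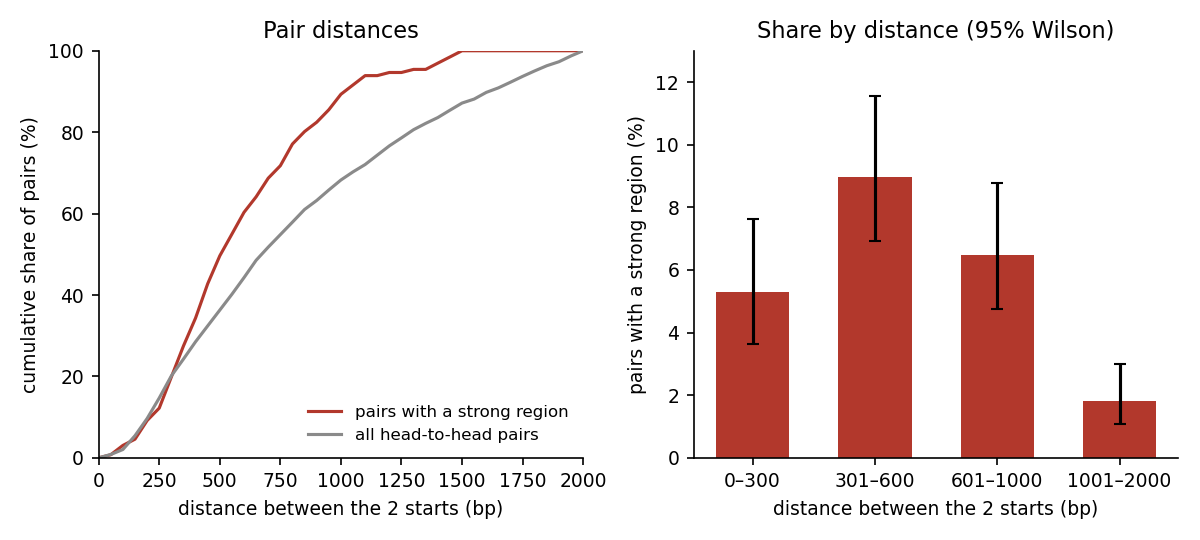
Left, cumulative share of pairs (%) by distance between the starts (bp) for the 131 head-to-head pairs with a strong region and for all 2444 pairs. Right, share of pairs with a strong region (%) in 4 classes of distance, with 95% Wilson intervals, where the class from 301 to 600 bp is highest at 8.98% and the class above 1000 bp lowest at 1.8%.

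Signal values in the pooled list ran from 52.8 to 235 over the 158 regions, with a median of 67.1. The rule used these signal values, and the replicates that made them, so the following describes the choice. The deposited −log10 q values, larger where a region is better supported, ran from 0.764 to 2.61 with a median of 1.25. Strong thus means rank by signal value only, and many of the regions had modest q values. Among the 158, 47 (29.7%) were in the authors' list of peaks past the threshold on the irreproducible discovery rate (IDR), which holds the 327 strongest pooled regions. That list takes 1.53% of all candidates and 13.2% of the 1528 regions of the top 2000 outside the left-out places. A candidate of replicate 1 overlapped 155 of the 158, with values from 13.9 to 104.4 and a median of 33.6. A candidate of replicate 2 overlapped 157, with values from 15 to 136 and a median of 39.2. Both replicates held one among their own 2000 strongest in 80 of the 158 (50.6%, 42.9% to 58.3%), against 37.4% of the 1528 regions and 42.8% of the single-gene regions (38.6% to 47.2%). In 7 regions neither replicate did. Where both replicates had a value, in 154 regions, replicate 1 was the higher in 51 and the median ratio of replicate 2 to replicate 1 was 1.17. Spearman's rho between the replicates was 0.536 over these regions, which share libraries and are not independent.

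At the rank limit the values ran on without a gap. The last regions inside it, at B0464.6/B0464.9, hxk-2/cdk-9 and polh-1/rps-22, had pooled values of 53.2, 52.9 and 52.8. That at hxk-2/cdk-9 had no counterpart in replicate 2. The first outside, at F56B3.11/ech-5, F55A4.7/vpat-1 and aman-2/F58H1.3, had 52.7, 52.6 and 52.5. The one at F56B3.11/ech-5 overlapped a stronger region of the set at the same genes, with a pooled value of 91, and the same replicate regions matched both.

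The 15 head-to-head regions of largest signal had pooled values from 133 to 235. The first, between atx-2, an RNA-binding ataxin-2 homologue, and ecps-1, related to a proteasome adaptor, lay on chromosome III from 10461185 to 10461434. It had 96.7 in replicate 1, 136 in replicate 2 and 235 pooled, and its summit was 64 bp from the start of atx-2 and 774 bp from that of ecps-1. Its replicates averaged 116 ± 27.8 (SD, n = 2). The summit was thus far nearer to the start of 1 gene, as it also was for tasp-1, a protease of the taspase family. The region between tasp-1 and K01G5.10 (chromosome III, 10759175 to 10759301) had 99.5 in replicate 1, 107 in replicate 2 and 197 pooled, 54 bp from tasp-1 and 731 bp from K01G5.10.

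In 4 of the 15 a gene is known for or annotated with a mitochondrial function. Such groupings of the 15 were made after their values were seen and were not counted against all genes. The region in the 92 bp between the starts of ears-2 and uncp-18, a relative of the syntaxin-binding Munc18 proteins (chromosome IV, 390399 to 390550), had 104.4 in replicate 1, 93.8 in replicate 2 and 199 pooled. That between idhg-1, a subunit of isocitrate dehydrogenase, and mlcd-1, malonyl-CoA decarboxylase (chromosome III, 4568674 to 4568789), had 93.7 in replicate 1, 97.7 in replicate 2 and 192 pooled. At Y41D4A.6, annotated as a mitochondrial amidotransferase subunit, and Y41D4A.4 (chromosome IV, 1745522 to 1745971) the values were 77.6, 99.8 and 178 in the same order. Of these 3, the replicates lay closest at idhg-1 and farthest apart at Y41D4A.6. The region between F29B9.11, annotated as a cytochrome c oxidase polypeptide, and jmjd-1.2 (chromosome IV, 4660362 to 4660811) had 70.7 in replicate 1, 82.2 in replicate 2 and 150 pooled. A further pair is known for joint function: hsp-60, the mitochondrial chaperonin, and Y22D7AL.10, annotated as its 10 kDa partner. Their region (chromosome III, 1618857 to 1619306) had 36.3 in replicate 1, 38.3 in replicate 2 and 74.2 pooled, with the summit 660 bp and 153 bp from the starts. It was named after its values were seen.

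In 3 others of the 15 a gene is known for or annotated with a role in chromatin or the cell cycle. The region between lin-35, the worm retinoblastoma protein, and vps-51, of a tethering complex for vesicles (chromosome I, 5807279 to 5807728), had 76.6 in replicate 1, 90.9 in replicate 2 and 158 pooled. Its summit was 205 bp and 213 bp from the 2 starts, close to the middle. The region between chaf-2, a subunit of the chromatin assembly factor, and Y71G12B.30 (chromosome I, 1822926 to 1823375) had 63.2 in replicate 1, 101 in replicate 2 and 161 pooled. Replicate 2 was the higher by more than the gap at lin-35. A second region of the set overlapped it with a pooled value of 54.5, and the same replicate regions matched both. The region of Y92H12BR.2 and Y92H12BR.3 (chromosome I, 1415765 to 1416214), of which the first is annotated with a domain of a chromatin protein, had 101 in replicate 1, 96.5 in replicate 2 and 195 pooled.

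A further 3 of the 15 include a gene for a ribosomal, a splicing or a zinc-finger protein. The region between rpl-15, of the large ribosomal subunit, and K11H12.8 (chromosome IV, 654699 to 655148) had 64.5 in replicate 1, 86.8 in replicate 2 and 155 pooled. That between snr-1, the Sm D3 protein of the spliceosome, and snx-13, a sorting nexin (chromosome IV, 17087390 to 17087839), had 49.5 in replicate 1, 97 in replicate 2 and 150 pooled. The replicates were farthest apart at snr-1 among the 15 strongest head-to-head regions, with a mean of 73.2 ± 33.6 (SD, n = 2). The region of mex-1, a zinc-finger protein of early embryos, with W03C9.5 and rab-7 (chromosome II, 11967501 to 11967950) had 64.2 in replicate 1, 74.9 in replicate 2 and 139 pooled. It lay 182 bp from W03C9.5 and 911 bp from mex-1.

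The remaining 3 of the 15 had pooled values from 133 to 144. The region of spe-48 and Y51F10.11 (chromosome I, 1958368 to 1958817) had 65.3 in replicate 1, 80.8 in replicate 2 and 144 pooled. The region of dnj-28, a J-domain chaperone, and supr-1 (chromosome I, 2996332 to 2996445) had 61.8 in replicate 1, 69.8 in replicate 2 and 134 pooled. The region of sup-35 and Y48A6C.4 (chromosome III, 11119259 to 11119708) had 69.5 in replicate 1, 63.7 in replicate 2 and 133 pooled.

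**Figure D4:**
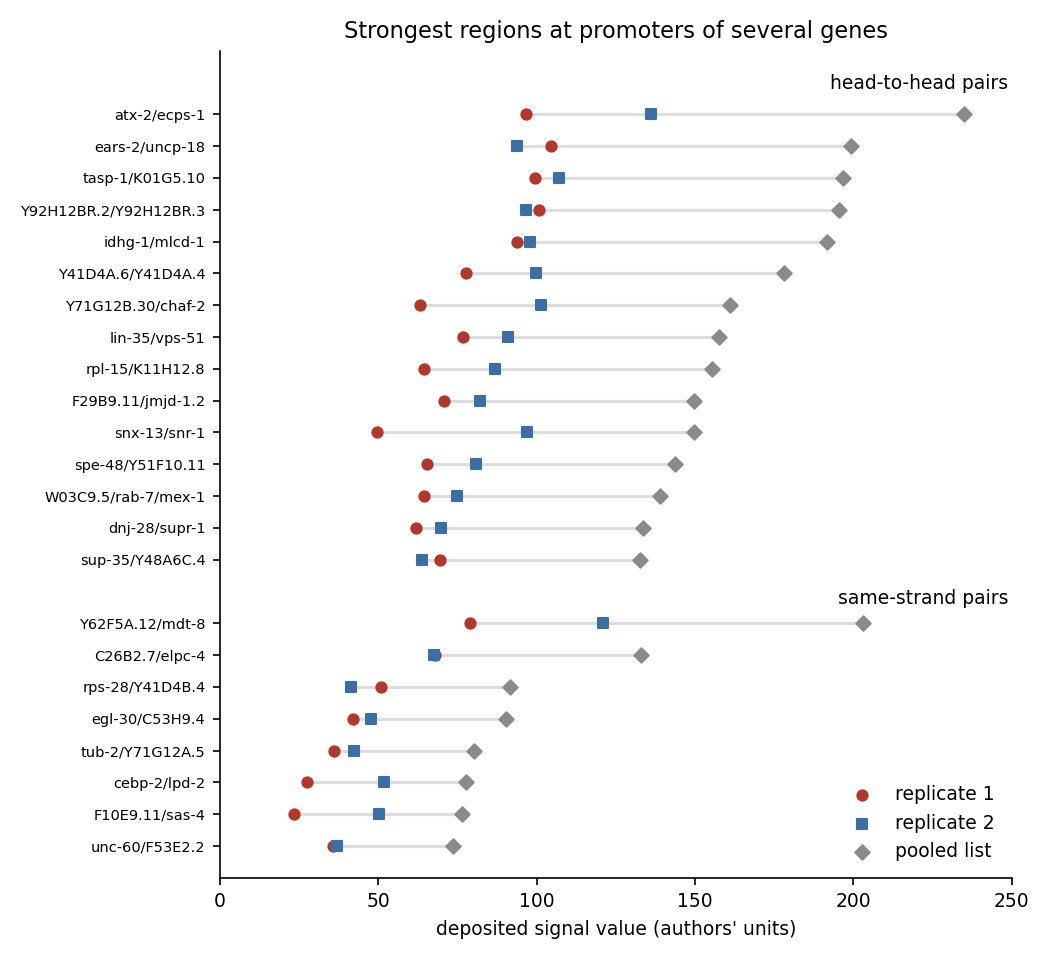
Deposited signal value (authors' units) in replicate 1, replicate 2 and the pooled list for the 15 strongest head-to-head and the 8 strongest same-strand regions. Pooled values lie above both replicates in every row, from 235 at atx-2 down to 73.6 at unc-60, and the replicates are farthest apart at snx-13/snr-1 and Y62F5A.12/mdt-8.

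The same-strand regions fell into 2 kinds. In 8 of the 12, at 7 loci, the first gene ended 47 to 116 bp before the second began, the close spacing seen in worm operons. Whether these pairs are operons is not annotated in the files used here. In the other 4 the genes overlap and share their upstream side. The strongest, upstream of Y62F5A.12 and mdt-8, a subunit of the Mediator complex (chromosome II, 11534552 to 11535001), had 79 in replicate 1, 121 in replicate 2 and 203 pooled. Only 40.9% of the 36-base words of its summit window were unique, all of the window was soft-masked, and Y62F5A.12 is annotated with a reverse transcriptase domain. The next, upstream of C26B2.7 and elpc-4 (chromosome IV, 8015813 to 8016262), had 67.8 in replicate 1, 67.6 in replicate 2 and 133 pooled, in a window with no unique word. A weaker region of the set overlapped it, at 58.1 pooled and 84.8% unique, and the same replicate regions matched both.

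At the other close-spaced pairs all 36-base words of the summit windows were unique. Soft-masked bases still made up from 26.7% of the window, at ddp-1/ttc-7, to 59.4%, at pfd-5/exos-9. The region of rps-28, a small-subunit ribosomal protein, and Y41D4B.4 (chromosome IV, 1658978 to 1659427) had 50.9 in replicate 1, 41.4 in replicate 2 and 91.4 pooled. The region of cebp-2, a CCAAT/enhancer-binding protein, and lpd-2 (chromosome I, 6252782 to 6253231) had 27.5 in replicate 1, 51.7 in replicate 2 and 77.7 pooled. At F10E9.11 and sas-4 (chromosome III, 8319094 to 8319543) the values were 23.3 in replicate 1, 50.1 in replicate 2 and 76.4 pooled. Replicate 2 was about as far above replicate 1 in both of these, which ranked 2412 and 4545 in replicate 1. At ddp-1/ttc-7 and pfd-5/exos-9 the pooled values were 72.1 and 70.1.

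Overlapping genes accounted for 3 of the strongest 8. The region at egl-30, a G protein alpha subunit of synaptic transmission, and C53H9.4 (chromosome I, 1835381 to 1835830) had 42.1 in replicate 1, 47.6 in replicate 2 and 90.4 pooled, with 66.3% G and C at the summit. The region at tub-2 and Y71G12A.5 (chromosome I, 1873781 to 1874230) had 36 in replicate 1, 42.4 in replicate 2 and 80.1 pooled. At unc-60, a cofilin of muscle actin, and F53E2.2, which share an annotated start (chromosome V, 1474465 to 1474914), it had 35.7 in replicate 1, 36.9 in replicate 2 and 73.6 pooled. Replicate 2 was slightly the higher in each of these 3.

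A few summits touched more than 2 genes. Windows of 3 genes held 10 of the 158 regions and windows of 4 held 1, at Y62E10A.23, mdt-9, Y62E10A.20 and lsm-3, a component of the U6 splicing particle (chromosome IV, 13386052 to 13386501). That region had 32.2 in replicate 1, 18.7 in replicate 2 and 53.3 pooled, near the rank limit.

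The share of genes with such a region varied between gene lists, also among lists of genes that every cell uses. Over all 6913 genes whose promoter window overlaps that of another gene, 306 (4.43%) had a region of the set, and over the 21 gene lists 56 of 1098 did (5.1%). Of 58 such ribosomal protein genes 8 did (13.8%, 7.16% to 24.9%), of 42 spliceosome and SR protein genes 6 (14.3%), of 43 translation factor and aminoacyl-tRNA synthetase genes 5 (11.6%), of 61 vesicle traffic genes 7 (11.5%) and of 22 SET-domain, deacetylase and SynMuv chromatin genes 4 (18.2%). Other lists of this kind lay nearer to the background or below it: histones at 4 of 70 (5.71%), RNA polymerases, TFIID and Mediator at 2 of 39 (5.13%) and mitochondrial ribosomal proteins at 1 of 38 (2.63%). Nuclear pore, replication, respiratory chain and ubiquitin genes had shares from 7.41% to 11.1%, with 2 to 4 genes each. Of 3 synaptic genes 1 did, egl-30. The share was 3 of 310 for chemoreceptors (0.968%), 2 of 117 for F-box and BTB genes, 1 of 50 for nuclear hormone receptors and 1 of 56 for collagens. No region was found at any of 27 proteasome, 25 neuropeptide, 14 homeobox or 5 touch receptor and BDU neuron genes. At the background share lists this small would hold about 1 gene or fewer, so a count of 0 there shows little. The intervals treat genes as independent, though some genes of a list share a region, as at rpl-24.1/rps-10 and rsp-1/rsp-2. The lists were not tested against one another or against the background.

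**Figure D5:**
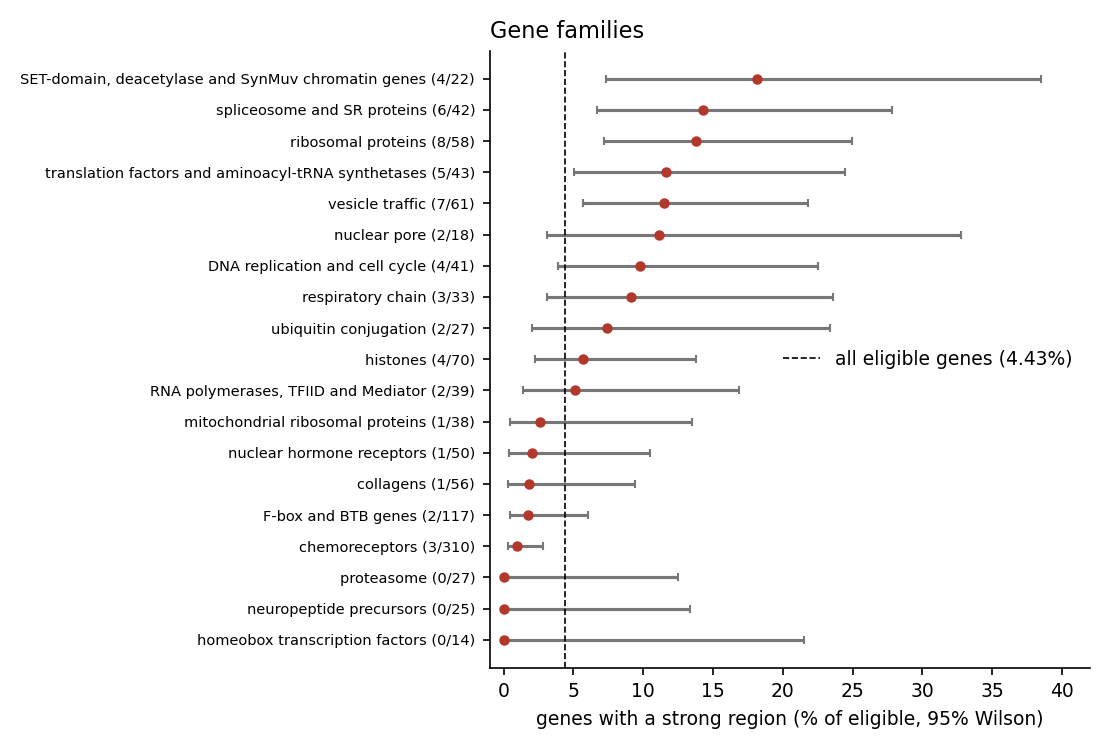
Share of eligible genes (%) with a strong region in the promoter window, for the 19 lists with at least 14 eligible genes, with 95% Wilson intervals, counts in the labels and the share over all eligible genes as a dashed line at 4.43%. The intervals of 5 lists lie above the line and that of the chemoreceptors below it. They treat genes as independent, though some share a region, and no list was tested.

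Of the ribosomal protein genes, rpl-43 (pooled value 122, with 51 in replicate 1 and 73.3 in replicate 2) and rpl-20 (95, with 46.6 and 49.8) followed rpl-15, each beside a gene of another kind. Both genes of a pair encoded ribosomal proteins at rpl-24.1/rps-10 only, where the region had 23.3 in replicate 1, 40.3 in replicate 2 and 66 pooled. Of the splicing genes, the SR protein genes rsp-1 and rsp-2 shared a region (chromosome II, 11452978 to 11453427) with 48.2 in replicate 1, 48 in replicate 2 and 99.5 pooled. The ubiquitin ligase of the spliceosome, prp-19, shared one with K10D2.5 and emb-1, at 41.7 in replicate 1, 75.6 in replicate 2 and 128 pooled.

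Histone pairs gave 2 loci, his-68/his-67 (53 in replicate 1, 53.7 in replicate 2 and 107 pooled) and his-62/his-61 (28.6, 33.2 and 61). Histone genes are near-identical copies, but all 36-base words of these summit windows were unique. Among vesicle genes, sec-61.B, of the protein channel of the endoplasmic reticulum, had 34.5 in replicate 1, 25.8 in replicate 2 and 63 pooled. Among chromatin genes, lin-61, which acts with lin-35 in vulval fate, shared a region with the mitotic kinase bub-1 at 37.7 in replicate 1, 52.5 in replicate 2 and 89.4 pooled. Replication genes were led by mcm-10, beside teg-1, at 37.1 in replicate 1, 70.3 in replicate 2 and 105 pooled. Of the translation list, eif-3.E, a subunit of an initiation factor, had 45.7 in replicate 1, 43.6 in replicate 2 and 86.3 pooled.

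The other genes named from the lists had weaker regions or less common neighbours. Among them npp-6, of the nuclear pore, shared a region with the centrosome gene spd-5 at 54.2 in replicate 1, 77.4 in replicate 2 and 132 pooled. A further nuclear pore gene, npp-25, shared one with mrps-10, of the mitochondrial ribosome, at 19.7 in replicate 1, 27.8 in replicate 2 and 53.2 pooled. Translation genes also paired with unlike neighbours: eef-1A.1, an elongation factor, with rfc-4, a clamp loader of replication (27.2 in replicate 1, 26.8 in replicate 2 and 58 pooled), and kars-1, the lysyl-tRNA synthetase, with kat-1 (30.1 in replicate 1, 31.5 in replicate 2 and 61.6 pooled). Of the replication and cell cycle list, cdc-6, which loads the replicative helicase, had 54.2 pooled and cdk-9, a kinase of transcription elongation, 52.9. The region of cdc-6 had 29 in replicate 1 and 23.2 in replicate 2. That of cdk-9 had 41.1 in replicate 1 and no counterpart in replicate 2. Of the chromatin list, set-16 had 25.7 in replicate 1, 31 in replicate 2 and 57.3 pooled, and hda-11, a deacetylase, had 15.6 in replicate 1, 41.3 in replicate 2 and 56.2 pooled. At hda-11 the replicates thus disagreed more than at set-16.

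The 3 genes of the respiratory chain list with a region were near the rank limit, with pooled values of 55.3 at ucr-2.1, 54 at cox-6B and 53.4 at atp-5. Replicates 1 and 2 had 27.1 and 25.8 at ucr-2.1, 15 and 37.9 at cox-6B, and 28.4 and 26.4 at atp-5. The list was made by gene symbol and does not hold every such gene. F29B9.11, annotated as a cytochrome c oxidase polypeptide, is outside it and had a region of 150 pooled. Of the ubiquitin genes, usp-48 had 58.1 pooled and ubc-6 had 56.5. The region of ubc-6 had no counterpart in replicate 1 and 37.4 in replicate 2, and 31.8% of the 36-base words of its window were unique. Single genes of the tissue-specific lists were the collagen col-71 (56.5 pooled) and the nuclear hormone receptor nhr-142 (68.1 pooled), and the F-box list gave fbxb-85 (58.8) and fbxc-44 (54.1).

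Chemoreceptor genes with a region stood beside genes of another kind. The summit was 910 bp from the start of srh-89 and 178 bp from that of F25E5.1, its neighbour with a BTB domain, and the region had 49.3 in replicate 1, 36.1 in replicate 2 and 89.1 pooled. For sre-1 it was 942 bp away and 52 bp from B0495.9, with 39.3 in replicate 1, 42.6 in replicate 2 and 80.1 pooled. In both the neighbour's start was the nearer. For sri-5, beside the SR-related gene rsr-1, the summit was nearer to the receptor, at 167 bp against 565 bp, and the pooled value was 73.8.

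The X chromosome, poor in shared promoters, held 5 of the 158 regions (3.16%, 1.36% to 7.19%), against 24.7% of the strong single-gene regions (21.1% to 28.7%), 5.99% of the weaker shared ones and 6.73% of genome positions in the windows of several genes. Chromosome I held 43 (27.2%, 20.9% to 34.6%), against 17.9% of such positions, and chromosome V 19 (12%), against 21.4%. The other sets were also low on chromosome V, with 12.95% of the strong single-gene regions and 14.2% of the weaker shared ones. On chromosome I they had 19.7% and 21.8%.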

How the data were processed

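The authors deposited, for each of the 2 replicates and for the pooled replicates, lists of candidate regions that served as input for IDR, together with the peaks that passed an IDR threshold, per the labels. Each region carries the authors' signal value and a −log10 q value; the control behind them was not used here. The deposited −log10 q values were not used to choose or test anything. The peak caller, aligner and read depth are not stated in the labels or files. The ce11 lists were used and no coordinate was converted. Depth per replicate being unknown, no interval on a signal value could be given.

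The pooled list was ranked by signal value, and summits were matched to transcript starts of 19973 protein-coding genes (Ensembl release 115, WBcel235). Replicate regions were matched by at least 1 bp of overlap, taking the strongest. Words were searched in windows of 101 bp on both strands. Shares carry 95% Wilson intervals, and with 1 group of 2 replicates no test between samples was made. The rule, the gene lists and the words were chosen with earlier results of these data known. Named regions are the 15 head-to-head and 8 same-strand ones of largest signal, those in windows of 4 genes, 3 on each side of the rank limit and up to 4 per gene list. The classing of regions and the word search were tested on simulated data. Alternatives covered the number of strongest regions, the promoter window, the starts used, the regions left out, each replicate alone, the matching of replicates and the sequence window. Sequences are RefSeq's, and those of 1 of the 6 chromosomes are not printed. Python 3.11.15, numpy 2.4.6, pandas 2.3.3, scipy 1.17.1 and matplotlib 3.10.9 were used.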

Additional observations from a re-analysis of the deposited data

How the results depend on the processing

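No paired analysis was possible because the series has 1 group. Shares were called moved when they left the 95% Wilson interval of the reported value, and counts when they changed by over 1.5 times. Of 76 values recomputed, 61 did not move. With the 1000 strongest regions the set numbered 89, both replicates were strong in 82% and CTGCGTCTC occurred in 2.25%. With the 4000 strongest it numbered 271, both replicates were strong in 31% and the summit lay between head-to-head starts in 84.4%. With windows of 500 bp upstream to 100 bp downstream it numbered 95, and 96.8% were head to head. From a single replicate's own 2000 strongest regions the set numbered 125 to 172, and the share also strong in the other replicate was 42.4% to 64.8%. Asking for summits within 100 bp gave 41.1% strong in both replicates, and the 1000 strongest of each gave 37.3%. Windows of 100 bp to each side, longer by construction, held AATCAC in 13.9% and reached 50% GC content in 16.5%. Over every protein-coding gene the share with a region was 1.53%, and each of the 21 gene lists stayed on its side of the background share. Keeping 1 region per locus, or dropping windows with repeated 36-base words, both added after the data were seen, moved none of these values. The fixed width of most regions, the unknown depth and the absence of an untagged sample from what was analysed here limit what the values can show.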
